A study of Mus musculus with 2 samples.

Results

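Chromatin accessibility was described at 9 mouse genes of fatty acid uptake and oxidation (Cpt1b, Cpt2, Acadm, Acadvl, Hadha, Hadhb, Cd36, Fabp3 and Lpl) of 21938 protein-coding genes. The genes were chosen by name, and their open sites by position. Sites centred no more than 1000 bp from an annotated transcription start of the gene were its promoter sites. A distal site lay farther away and was assigned to the gene with the nearest protein-coding start, up to 50 kb. Sites shared by both replicates numbered 26 at these genes, 11 at promoters and 15 distal, of 68349 genome-wide (23652 promoter and 44697 distal).

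The assay was DNase-seq, which reads where DNase I can reach and cut the DNA, that is, where chromatin is open. All samples formed 1 group: gastrocnemius, a calf muscle, of B6CASTF1/J females aged 14 days, the first-generation hybrid of C57BL/6J and CAST mice, with no treatment named. The 2 libraries are biological replicates from separate biosamples under the same donor record. The label of each biosample mentions 3 females, so a library may hold pooled animals, which the labels do not state outright. With 1 group there was no contrast between conditions and no test, and the spread between the replicates is the only error available. Replicate 2 carries the names of a pair of sequencing instruments and replicate 1 carries none, so sequencing batch and replicate cannot be told apart.

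Muscle burns fatty acids that arrive in lipoproteins or bound to albumin. Lipoprotein lipase (Lpl) frees them from triglyceride at the capillary wall, Cd36 helps them across membranes, and Fabp3 carries them through the cytosol. Cpt1b, the muscle form of the outer-membrane carnitine palmitoyltransferase, and Cpt2 at the inner membrane pass them into mitochondria as carnitine esters. Inside, the dehydrogenases Acadvl (very long chains) and Acadm (medium chains) start each round of beta-oxidation, and Hadha and Hadhb, the subunits of the trifunctional protein, carry out the later steps for long chains. PPAR and ERR nuclear receptors are known to drive many of these genes.

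Sequences are given for the strongest promoters, where the replicates' footprints (stretches shielded from DNase I within open DNA) can be read off the bases. They are the parts of the sites outside annotated exons, from the RefSeq sequence of GRCm38 (mm10), and capitals mark bases under a footprint in both replicates. The Acadm stretch is chr3:153944644-153944840 on the minus strand, the Cpt2 stretch chr4:107923611-107923720 on the minus strand, and the Acadvl stretch chr11:70015429-70015500 on the minus strand. The Hadha/Hadhb stretch is chr5:30155163-30155247 on the plus strand, the direction of Hadhb.
Acadm promoter: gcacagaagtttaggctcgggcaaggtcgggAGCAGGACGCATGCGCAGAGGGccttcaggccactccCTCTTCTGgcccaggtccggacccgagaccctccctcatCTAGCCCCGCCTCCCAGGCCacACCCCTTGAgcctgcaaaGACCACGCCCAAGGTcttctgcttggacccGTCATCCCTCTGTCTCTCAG
Cpt2 promoter: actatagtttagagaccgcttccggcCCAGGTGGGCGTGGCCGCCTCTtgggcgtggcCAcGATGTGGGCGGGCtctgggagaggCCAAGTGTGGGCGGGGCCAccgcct
Hadha and Hadhb promoter: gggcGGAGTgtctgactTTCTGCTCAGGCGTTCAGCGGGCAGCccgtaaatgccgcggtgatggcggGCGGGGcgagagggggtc
Acadvl promoter: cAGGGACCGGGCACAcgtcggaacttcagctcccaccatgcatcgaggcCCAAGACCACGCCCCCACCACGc
Of the bases shown, 94 of 197 at Acadm, 56 of 110 at Cpt2, 37 of 85 at Hadha/Hadhb and 36 of 72 at Acadvl lay under a footprint in both replicates.

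A further set shows sites away from the start. The Fabp3 sites are all on the plus strand, at chr4:130299281-130299580 (9.17 kb upstream), chr4:130306801-130307000 (1.70 kb upstream) and chr4:130307855-130308060 (638 bp upstream). The Cpt2 site is chr4:107937381-107937520 on the minus strand, 13.8 kb upstream.
Fabp3 far upstream site: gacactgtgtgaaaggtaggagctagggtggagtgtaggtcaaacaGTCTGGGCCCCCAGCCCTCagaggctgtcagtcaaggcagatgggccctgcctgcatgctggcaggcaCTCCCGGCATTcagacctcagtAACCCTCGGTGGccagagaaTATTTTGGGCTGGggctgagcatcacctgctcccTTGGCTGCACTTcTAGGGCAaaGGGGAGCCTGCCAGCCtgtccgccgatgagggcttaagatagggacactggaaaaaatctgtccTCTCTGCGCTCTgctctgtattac
Fabp3 near upstream site: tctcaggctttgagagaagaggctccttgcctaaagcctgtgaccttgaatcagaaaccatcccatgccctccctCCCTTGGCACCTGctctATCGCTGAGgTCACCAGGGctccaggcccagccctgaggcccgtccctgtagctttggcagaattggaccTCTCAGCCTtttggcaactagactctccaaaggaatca
Fabp3 upstream promoter site: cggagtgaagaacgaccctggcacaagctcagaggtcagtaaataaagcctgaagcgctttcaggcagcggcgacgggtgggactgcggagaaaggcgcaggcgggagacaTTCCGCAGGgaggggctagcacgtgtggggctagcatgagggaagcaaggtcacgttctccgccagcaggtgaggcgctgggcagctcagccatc
Cpt2 upstream site: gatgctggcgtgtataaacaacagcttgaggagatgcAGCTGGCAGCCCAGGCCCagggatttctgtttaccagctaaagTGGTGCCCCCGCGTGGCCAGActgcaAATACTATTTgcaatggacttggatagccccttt
Bases under a footprint in both replicates made up 102 of 300 in the far upstream site of Fabp3 and 40 of 200 in its near upstream site. They made up 9 of 206 in its upstream promoter site and 49 of 140 in the Cpt2 site.

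Of the 9 genes, 8 had a promoter site shared by both replicates in the strict peak list, against 63.7% of all protein-coding genes. The exception was Cd36. Promoter levels are the deposited peak signal, the authors' own value per peak, which is not stated to be per length. A gene's level is that of its strongest promoter peak. Among the 13974 genes with a shared promoter site the median level was 7.96 in replicate 1 and 7.19 in replicate 2.

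The genes that work inside the mitochondrion had the higher promoter levels. Acadm (ENSMUSG00000062908.12, chr3:153922357-153944632, minus strand) had 22.4 in replicate 1 and 18.0 in replicate 2, a mean of 20.2 ± 3.09 (SD, n = 2). That mean stood at the 92.5th percentile of genes with a shared promoter site. Its site at chr3:153944441-153944840 spans the start and was the only shared site of the gene.

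Cpt2 (ENSMUSG00000028607.16, chr4:107903981-107923610, minus strand) followed with 14.6 in replicate 1 and 12.9 in replicate 2, at the 77.1st percentile. Its 220 bp site, chr4:107923501-107923720, lies over the start, in part in an untranslated exon.

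Hadha (ENSMUSG00000025745.12, chr5:30118304-30155162, minus strand) and Hadhb (ENSMUSG00000059447.13, chr5:30155248-30184593, plus strand) point away from each other, with starts 86 bp apart. A single site at chr5:30155161-30155360 covers both starts, with 11.2 in replicate 1 and 9.81 in replicate 2. The genes therefore have 1 value between them and are not independent observations. Of the 8 genes with a shared promoter site, these make 7 different strongest sites.

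Acadvl (ENSMUSG00000018574.14, chr11:70010183-70015411, minus strand) had 6.18 in replicate 1 and 8.33 in replicate 2, near the middle of open genes at the 48.2nd percentile. Its start lies 1531 bp from that of Dlg4, a synaptic scaffold gene. Of the 7 strongest promoter sites, only this and, by a small margin, that of Fabp3 had the higher value in replicate 2. Over all 68349 shared sites the median log2 ratio of replicate 2 over replicate 1 was -0.14 (SD 0.30), and relative to that median Acadvl stood at 0.57. Of all shared promoter sites, 652 of 23652 (2.76%) stood as high.

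Cpt1b (ENSMUSG00000078937.8, chr15:89416405-89425863, minus strand) had a lower level, 3.55 in replicate 1 and 2.35 in replicate 2, at the 21.7th percentile of open genes. Its partner in the carnitine shuttle, Cpt2, was 4.12 times as high in replicate 1 and 5.49 times as high in replicate 2. The Cpt1b site, chr15:89425781-89426060, also lies in an intron of Gm44502, a gene model that runs through Chkb and Cpt1b, and Chkb (choline kinase beta) starts 1296 bp from Cpt1b. Relative to the median of all sites, Cpt1b stood lower in replicate 2 by a log2 ratio of -0.45.

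By the strongest peak, the genes of uptake and transport had the lowest levels, an order that turns against Cpt1b when promoter peaks are summed. Fabp3 (ENSMUSG00000028773.8, chr4:130308595-130315463, plus strand) had 2.39 in replicate 1 and 2.42 in replicate 2. Lpl (ENSMUSG00000015568.16, chr8:68880491-68907448, plus strand) had 2.19 in replicate 1 and 2.07 in replicate 2. They stood at the 17.6th and the 15.5th percentile of open genes. Acadm was 10.2 times as high as Lpl in replicate 1 and 8.71 times in replicate 2. The gap was smaller when promoter peaks were summed, with means of 20.5 for Acadm and 4.96 for Lpl.

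In the order of the means of the strongest peak (Acadm, Cpt2, Hadha with Hadhb, Acadvl, Cpt1b, Fabp3, Lpl), the replicate values of neighbours did not overlap, except for those of Cpt1b and Fabp3, which did.

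**Figure D1:**
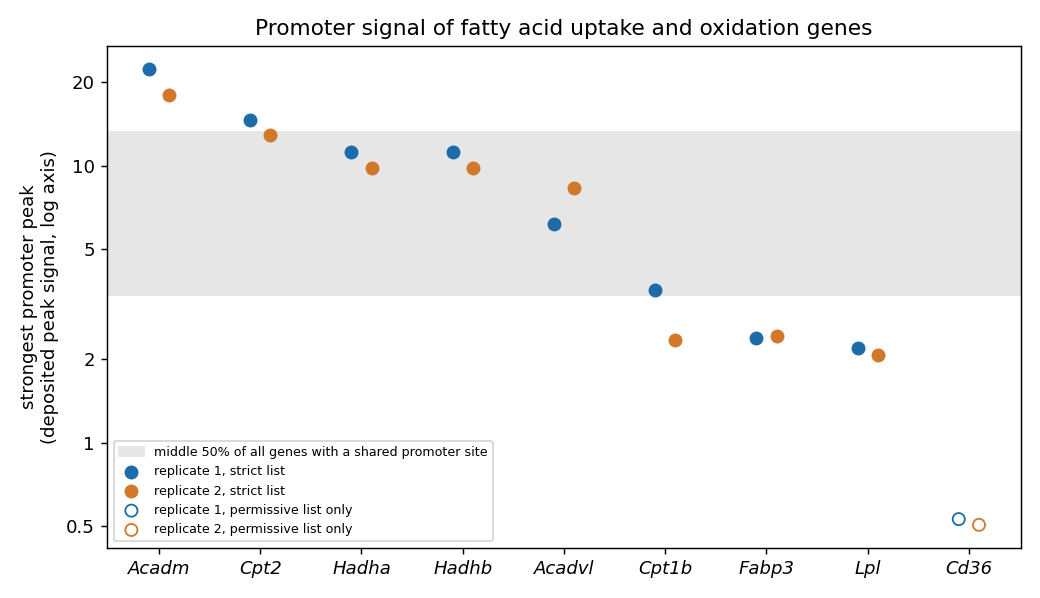
Promoter signal (deposited peak signal, log axis) of each gene in replicate 1 and replicate 2, with a grey band for the middle 50% of all genes with a shared promoter site. Acadm is highest at 22.4 and 18.0, Fabp3 and Lpl lie near 2, and Cd36 has values in the permissive list only (0.530 and 0.505).

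Fabp3 and Lpl each had 3 shared promoter sites, and every other open gene here had 1. Of all genes with a shared promoter site, 20.4% had 3 or more. At Fabp3 the site over the start (chr4:130308541-130308720) was flanked by the upstream promoter site shown above, with 1.72 in replicate 1 and 1.29 in replicate 2, and by a site in the intron, with 1.48 and 1.08. All lie near the start of Gm10570 as well, a gene model on the opposite strand that starts 79 bp from Fabp3. At Lpl a site of 2.19 and 2.07 over the start (chr8:68880601-68880800) was followed by sites of 1.05 and 1.02 and of 1.89 and 1.71 further into the gene. Summed over a gene's promoter peaks, the mean level was 5.19 for Fabp3 and 4.96 for Lpl, both above Cpt1b, which has a single peak and kept 2.95.

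Cd36 (ENSMUSG00000002944.15, chr5:17781690-17888801, minus strand) was without a promoter peak in the strict lists. In the permissive list its strongest promoter peak had 0.530 in replicate 1 and 0.505 in replicate 2, and 68.1% of all genes had a shared promoter site in that list. That peak (chr5:17849707-17849880 in replicate 1) covers a start inside the gene, where the lowest false discovery rate of the cut rate was 0.00244 in replicate 1 and 0.00716 in replicate 2. Footprints there numbered 2 in replicate 1 and 1 in replicate 2. Permissive peaks also lay by another start inside the gene, the strongest at 0.530 in replicate 1, an equal level, and 0.312 in replicate 2. At the outermost starts neither list held a peak: 39 bases were listed in replicate 1, with a lowest rate of 0.0317, and none in replicate 2. The strict list of replicate 1 held a pair of Cd36 peaks away from any start, 0.763 in an intron and 0.643 at 5.20 kb upstream. In replicate 2 the same places had permissive peaks only, of 0.352 and 0.432.

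Cd36 and Lpl are also expressed by cells other than muscle fibres, Cd36 by capillary endothelium and both by fat cells, so marker lists of these cells were read alongside. The share to set beside each list is 63.7%, that of all protein-coding genes with a shared promoter site. Of 10 myofibre markers all 10 had a shared promoter site, and their summed level was 73.1 in replicate 1 and 59.6 in replicate 2. Of 10 endothelial markers 9 did (all but Robo4), with a summed level of 26.5 in replicate 1 and 22.1 in replicate 2 and site means between 0.793 and 8.55. Of 10 adipocyte markers 4 did, with sums of 29.0 and 25.8, mostly from Lpin1 (12.0 in replicate 1 and 9.35 in replicate 2) and Adipor2 (11.6 and 11.4), which other tissues express too. The droplet genes Cidea (3.04 and 2.68) and Plin1 (2.32 and 2.37) were the others, the second at about the level of Lpl. Adipoq, Lep, Retn, Cfd, Cidec and Pck1 had no strict promoter peak. Of 10 macrophage markers 1 did (Spi1, summed level 1.82 and 1.69), and of 10 cardiomyocyte markers 3 did (Gata4, Nppb and Myl4). Over the strict peaks of all 10 cardiomyocyte markers, shared or not, the sums were 17.8 and 13.2, of which Myl4 alone gave 12.6 and 10.7. The part of such cells in the values of Cd36 and Lpl was not tested, and in bulk tissue a site open in few cells and a site weakly open in many cannot be told apart.

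Distal sites were unevenly spread. Of the 9 genes, 5 had at least 1 shared distal site, against 49.1% of all protein-coding genes. Lpl had 8, Cpt2 had 3, Fabp3 had 2, and Hadha and Hadhb had 1 each. Cpt1b, Acadm, Acadvl and Cd36 had none. The stretch within which a site is nearest to the gene differed widely, with 1.77 kb at Acadvl and 5.52 kb at Cpt1b but 133.8 kb at Cd36 and 81.9 kb at Lpl. Per 100 kb of that stretch there were 14.6 sites at Fabp3, a value that rests on 2 sites in 13.7 kb. Lpl had 9.77, Cpt2 7.74, Hadhb 3.80 and Hadha 3.25, and the value over all genes was 2.62.

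**Figure D2:**
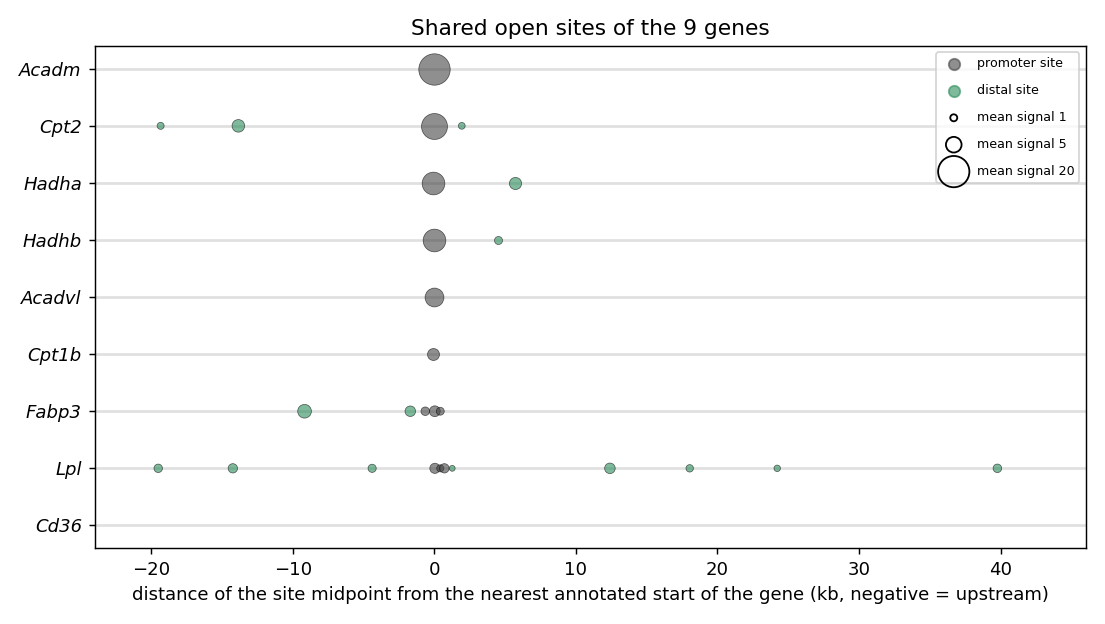
Shared open sites of the 9 genes by distance of the midpoint from the nearest annotated start of the gene (kb, negative upstream), with circle area scaled to the mean signal of both replicates. Lpl has 8 distal sites on both sides of its starts, and Acadm, Acadvl and Cpt1b have a promoter site only.

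The strongest distal site was the far upstream site of Fabp3, with 4.38 in replicate 1 and 3.30 in replicate 2, at the 88.2nd percentile of all shared distal sites by its mean. The near upstream site of Fabp3 had 2.67 in replicate 1 and 1.87 in replicate 2. Fabp3 was the only gene here whose strongest distal site exceeded its strongest promoter site in both replicates, 1.83 times in replicate 1 and 1.37 times in replicate 2. Of 8353 genes with both kinds of site, 21.6% had this order. The strongest distal site of Fabp3 alone (mean 3.84) was lower than its summed promoter peaks (mean 5.19), but that sets 1 site against a sum. Summed in turn, its 2 distal sites had 7.05 in replicate 1 and 5.18 in replicate 2.

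At Lpl the strongest distal site was intronic, chr8:68903061-68903240, with 2.59 in replicate 1 and 1.97 in replicate 2, and 22.7 kb from the outermost start. It was 1.18 times its promoter level in replicate 1 and 0.955 times in replicate 2, so the order turned between replicates. Next came a site 14.2 kb upstream (2.11 and 1.47) and a site 39.8 kb downstream of the nearest Lpl start, and 50.03 kb from the outermost one (1.76 and 1.24). The site 19.5 kb upstream had 1.89 in replicate 1 and 1.06 in replicate 2. It had the lowest ratio among these genes' sites, -0.69 on the log2 scale relative to the median of all sites.

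At Cpt2 the site 13.8 kb upstream had 3.49 in replicate 1 and 3.02 in replicate 2, at the 83.7th percentile of distal sites, and its other sites, an intronic one (0.834 and 1.05) and one 19.3 kb upstream (1.12 and 0.911), were weak. The Cpt2 upstream site reached 0.239 times the promoter level in replicate 1 and 0.234 times in replicate 2.

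The site assigned to Hadha, chr5:30114441-30114720, had 3.09 in replicate 1 and 2.97 in replicate 2. It lies in an exon of Garem2, 5.73 kb beyond the nearest start of a Hadha transcript and 40.6 kb from the outermost one. Its assignment therefore rests on an annotated start inside the gene. The Hadhb site, in an intron 4.50 kb from the nearest start, had 1.23 in replicate 1 and 1.41 in replicate 2.

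Footprints lay in every shared site of these genes in at least 1 replicate. At promoters 9 of 11 sites held a footprint in both replicates, against 86.2% of all shared promoter sites, and 13 of 15 distal sites did, against 95.5% of all shared distal sites. Both shares were close to the background. The 26 sites held 84 footprints in replicate 1 and 84 in replicate 2. By site, the Acadm promoter held 7 in replicate 1 and 9 in replicate 2, the Hadha/Hadhb promoter 7 and 6, the Cpt2 promoter 6 and 5, the Cpt1b promoter 5 and 4, and the Acadvl promoter 3 and 3. Of the distal sites, the one in Garem2 held 8 and 8 and the far upstream site of Fabp3 held 7 and 7. The 4 sites without a footprint in one of the replicates were the intronic Fabp3 promoter site, the middle Lpl promoter site, the Cpt2 site 19.3 kb upstream and the exonic Lpl site. All had a mean signal of at most 1.28. Genome-wide, the share of promoter sites with a footprint in both replicates was 59.5% in the 5913 weakest by signal and 100% in the 5913 strongest. For distal sites it was 88.6% in the 11175 weakest and 99.7% in the 11174 strongest.

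Short motifs were searched on both strands in 150 bp windows at site midpoints, 22 motifs in all. A match is a run of letters and no evidence of binding. The ERR motif AAGGTCA, which contains the nuclear receptor core AGGTCA, was in 4 of the 26 windows. These were 2 of 11 at promoters (the upstream promoter site of Fabp3 and Hadha/Hadhb), against 1.21% of all promoter windows, and 2 of 15 distal (the near upstream site of Fabp3 and the intronic Lpl site), against 2.66% of distal windows. In the Lpl site it lay under a footprint in both replicates, and in the other 3 it did not. At the near upstream Fabp3 site the run extends to TCAAGGTCA, held by 0.195% of distal windows, and there it overlaps an AP-1 match TGANTCA.

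The PPAR/RXR direct repeat was in no window in its exact form, found in 0.00846% of promoter and 0.0112% of distal windows. With 1 mismatch allowed it was at Acadvl, 57 bp inside the start, against 0.194% of promoter windows, and outside the window in the upstream promoter site of Fabp3, 709 bp upstream of the start. Neither match lay under a footprint in either replicate.

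The GC box GGGCGG, a common motif of promoters, was in 3 of 11 promoter windows (Cpt1b, Cpt2 and Hadha/Hadhb), against 49.3% of all promoter windows, and each of the 3 held it under a footprint in both replicates. The Acadm site held it outside the window, 142 and 107 bp inside the start. The match at 142 bp lay under a footprint in both replicates and the other did not. The CACCC motif CCACACCC was in 3 of 11 (Acadm, Fabp3 at the start and the middle Lpl promoter site), against 2.25%. The muscle E-box CAGCTG, a motif of myogenic factors, was in 5 of 15 distal windows (Cpt2 at 13.8 kb upstream, and 4 of Lpl), against 25.4% of distal windows. In 2 of the 5, both at Lpl, it lay wholly under a footprint in both replicates, and at Cpt2 it overlapped one in both without lying wholly inside. It was in no promoter window, against 12.1% of all promoter windows. MEF2 and MEF3 motifs were in none of the 26 windows. With so few windows, and 22 motifs searched, these counts are descriptions.

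The CpG ratio (observed over expected CpG in 1000 bp around the site midpoint) of the strongest promoter sites was 0.819 at Hadha/Hadhb, 0.660 at Fabp3, 0.594 at Acadvl, 0.586 at Acadm, 0.581 at Lpl, 0.563 at Cpt2 and 0.338 at Cpt1b. Acadm and Cpt2, with the highest levels, lay just under 0.6. At the Cd36 starts it was between 0.0858 and 0.231. Of all shared promoter sites, 65.7% had 0.6 or more, with a median level of 5.18, and the others had a median of 2.16.

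The other genes of the pathway were read from lists of 52 genes in 5 roles. Of these, 50 had a shared promoter site, against 63.7% of all genes. The median level over all 52 was 8.47 in replicate 1 and 7.78 in replicate 2. Over all protein-coding genes it was 2.99 and 2.86, with genes lacking a strict promoter peak counted as 0. Among all genes with a shared promoter site it was 7.96 and 7.19, close to the pathway medians. The genes short of a shared site were Gpihbp1 and Fabp4. Gpihbp1, which holds lipoprotein lipase on capillaries, had 1.33 in replicate 1 and 0.877, permissive, in replicate 2. Fabp4, the fatty acid carrier of fat cells and capillaries, had 0.664 in replicate 1 and 0.405, permissive, in replicate 2. Both were named after their values were seen. Both had a strict peak in replicate 1 only.

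Uptake and lipoprotein handling had 6 of 8 genes with a shared site and a median of 5.62 in replicate 1 and 5.64 in replicate 2. Its highest were Lmf1, needed for lipase maturation (17.7 and 13.8), Slc27a4, a fatty acid transporter (14.6 and 14.6), and Angptl4, an inhibitor of lipoprotein lipase (15.7 and 13.0). Vldlr, a lipoprotein receptor, had most distal sites with 3, and Angptl4 and Lmf1 had 2 each.

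Activation and the carnitine shuttle had 11 of 11 genes and the highest medians of the 5 roles, 14.2 in replicate 1 and 13.2 in replicate 2. Slc22a5, the carnitine importer, had 27.2 and 20.8, Acsl1, which activates long chains to coenzyme A esters, had 24.9 and 21.7, and Acsl3 had 18.7 and 17.0. The liver form Cpt1a had 8.59 and 7.996 and the brain form Cpt1c 5.47 and 4.81, each above Cpt1b in both replicates. Acacb, which makes the malonyl-CoA that inhibits the carnitine palmitoyltransferase of the outer membrane, Acsl3 and Cpt1a had 5 distal sites each.

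Beta-oxidation and electron transfer had 12 of 12 genes, with medians of 11.7 and 9.77. The highest were the isomerases Eci1 (20.2 and 17.3) and Eci2 (15.6 and 12.7) and the thiolase Acaa2 (13.6 and 11.0), each under Acadm in the same replicate. Distal sites had a median of 0 per gene, the same as over all protein-coding genes, and numbered at most 3 (Acaa2, Acadl and Hadh).

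Droplet storage and lipolysis had 7 of 7 genes with medians of 8.35 and 6.34. The lipases Lipe (18.4 and 16.03) and Pnpla2 (18.5 and 14.7) and the droplet coat gene Plin3 (12.1 and 13.3) were highest. Mgll, the monoglyceride lipase, had 10 distal sites beside a promoter level of 2.40 in replicate 1 and 4.89 in replicate 2, and Lipe and Plin2, a droplet coat gene, had 2 each.

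The regulators had 14 of 14 genes, with lower medians, 3.91 and 3.65. They had the most distal sites of the roles, 82 in all and a median of 4.5 per gene, against 0 over all protein-coding genes. Distal counts by role are not scaled to the stretch within which a site is nearest to the gene. That stretch ran from 4.97 kb (Esrra) to 234.8 kb (Esrrb) among the regulators. Among the beta-oxidation genes it ran from 3.59 kb (Echs1) to 93.0 kb (Eci2). The nuclear receptors Esrra (37.0 and 31.5) and Ppard (22.9 and 21.02) had the highest levels, followed by Pdk4 (13.4 and 9.29), the kinase that turns off pyruvate oxidation. Rxra, the partner of PPAR receptors, had 20 distal sites, and Ppara had 12.

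**Figure D3:**
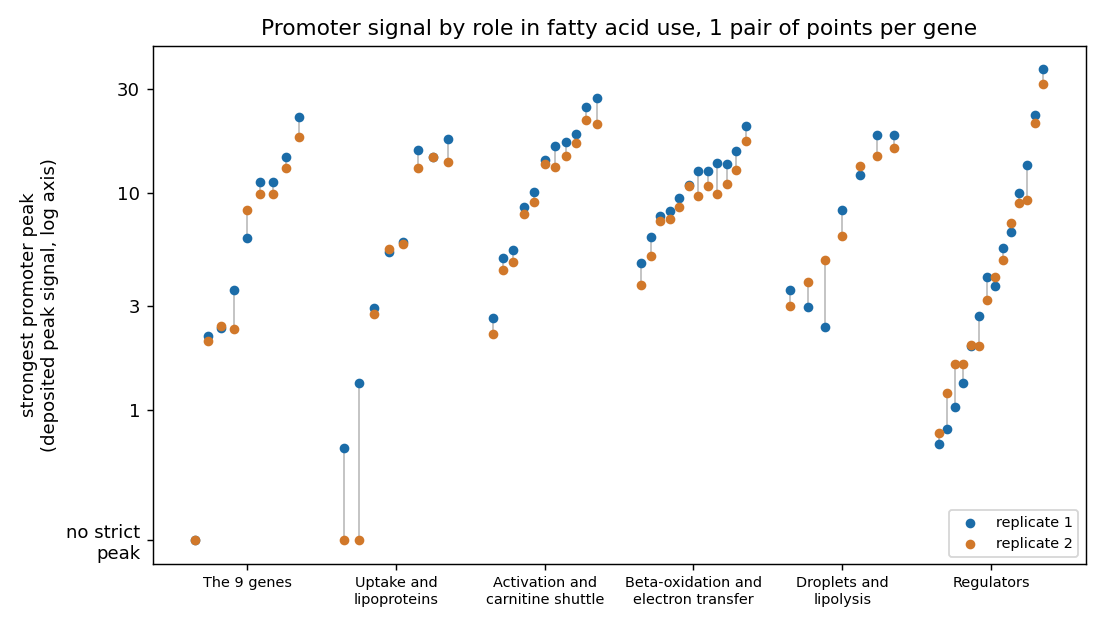
Promoter signal (deposited peak signal, log axis) of the 9 genes and of the 52 other pathway genes by role. A pair of points joined by a line stands for each gene (replicate 1 and replicate 2). A point at the bottom marks a replicate without a strict peak for that gene. The shuttle genes have the highest medians (14.2 in replicate 1 and 13.2 in replicate 2), and the means of the regulators range from 0.735 to 34.2.

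Replicate agreement was read at all 26 sites. Relative to the median of all shared sites, the largest departures were -0.69 on the log2 scale at the Lpl site 19.5 kb upstream, 0.57 at the Acadvl promoter, and 0.48 at the intronic Cpt2 site, against an SD of 0.30 over all sites.

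**Figure D4:**
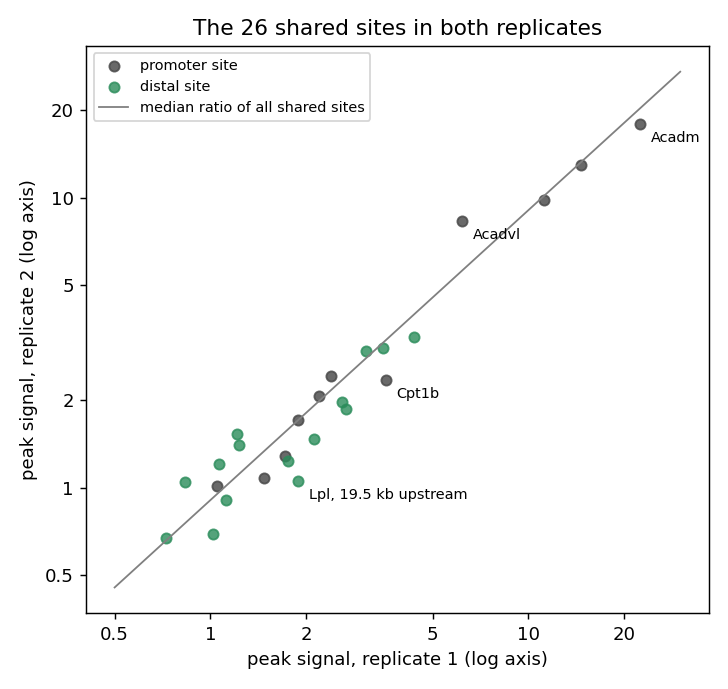
Signal of the 26 shared sites of these genes in replicate 2 against replicate 1 (deposited peak signal, log axes), with promoter and distal sites in 2 colours and a line at the median ratio of all shared sites. The Acadvl promoter (6.18 in replicate 1 and 8.33 in replicate 2) lies above the line, and Cpt1b and the Lpl site 19.5 kb upstream lie below it.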

How the data were processed

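The libraries were DNase-seq of gastrocnemius from 2 biological replicates of 1 group. Files are on mm10 per the labels. For aligner, callers and read totals: not given in the sources used here. Per the file names and labels, the authors deposited for each replicate 2 peak lists, 1 list of footprints and 1 per-base table, with replicates not pooled. Column 7 of the deposited peak lists was read as the authors' signal, whose scaling is not stated; every value was a whole multiple of a library's step (within 0.05 of a step). The deposited per-base q-values (false discovery rates) are listed only under 0.05, and the deposited footprints carry 1 q-value level, 0.01.

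The list with fewer rows (87558 and 79562 peaks) was the main, strict list, and the other (142031 and 133321) the alternative. Peaks of both replicates overlapping by at least 1 bp were merged into shared sites. Starts came from the GENCODE annotation of GRCm38, less 13 mitochondrial genes. Tools were Python 3.11.15, NumPy 2.4.6, pandas 2.3.3 and matplotlib 3.10.9, tested on simulated data. The genes, lists and motifs were chosen with earlier results of these data known. Named pathway genes were, in each role, the top 3 by mean promoter signal and the top 2 by number of distal sites, with ties. No test was run, since the design has no contrast. Depth in reads is unknown, so no counting interval is given.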

Additional observations from a re-analysis of the deposited data

How the results depend on the processing

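The strict list was compared with the permissive one, with stronger peaks, other overlaps, windows and assignments, and with each replicate left out. The count of genes with a promoter site was 8 in every setting but the permissive list, where it was 9 with Cd36. Distal sites fell to 5, and sites with a footprint in both replicates to 13 of 13, when only the stronger 50% of peaks were kept, which has fewer peaks by construction. With 1 replicate left out the ranges were 8 to 8 genes, 16 to 17 distal sites, 50 to 52 pathway genes and 22 to 23 footprint sites. Of 64 motif counts under the other windows, 12 moved. When promoter peaks were summed, the mean level was 5.19 for Fabp3 and 4.96 for Lpl, both above Cpt1b at 2.95, which turns their order. The strongest Fabp3 distal site alone did not exceed that sum. The 2 Fabp3 distal sites summed had 7.05 in replicate 1 and 5.18 in replicate 2. With a wider promoter window Fabp3 was at 2.55. No paired analysis was possible because there is 1 group. Unknown read depth limits what an absent peak shows at Cd36.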
